A study of Mus musculus with 2 samples.

Results

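The enzymes that supply DNA synthesis with deoxynucleotides were followed through 9 genes, of 18193 genes that the array annotation names by a single symbol. They are a list given by name: Rrm1, Rrm2, Rrm2b, Tyms, Tk1, Dck, Dtymk, Dut and Dctpp1. Together they had 24 probe sets whose annotation gives that symbol alone, and all 9 genes had at least 1 probe set above the signal floor used here. Transcripts were measured in the whole liver of athymic BALB/c nude mice whose liver had been resected by 70%. One sample was taken at day 0, which the submitters call the control, and one at day 3, called active regeneration. The labels name the same strain and operation for both samples and give no age, no number of animals per sample and no sham-operated group. With 1 array per day no spread between samples exists, so every difference below is a description without a p-value, and day, surgery and animal cannot be told apart.

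Deoxynucleotides reach the cell's pool along a de novo and a salvage route. In the de novo route ribonucleotide reductase converts ribonucleoside diphosphates to deoxyribonucleoside diphosphates, and thymidylate synthase turns dUMP into dTMP. In the salvage route kinases phosphorylate deoxynucleosides taken up from outside or released inside the cell. Other enzymes keep unwanted nucleotides such as dUTP out of the pool. In resting liver most hepatocytes are out of the cell cycle, and after partial hepatectomy they enter S phase, where the demand for deoxynucleotides is greatest.

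Signals were the deposited MAS5 values in arbitrary linear units. A floor of 68.3, the higher of both array medians, marked signals too low to read, and values under it were raised to it before log2 was taken. A gene was read on the brightest of its probe sets, by mean log2 signal, called the main probe set, and a fold of 2 marked a gene as higher or lower. Of 12634 genes above the floor on at least 1 array, 12.9% were at least 2-fold higher at day 3 and 5.62% at least 2-fold lower, with a median log2 ratio of 0.08. Of all genes past 2-fold in either direction, 69.6% were the higher ones. That share was 58.4% with quantile normalisation and 86.3% with scaling to the hybridisation spikes, which moved the median to 0.36. The spread between probe sets of a gene was taken from the 2 brightest above the floor on both arrays (n = 4380 genes). The SD of the difference between their log2 ratios, divided by the square root of 2, was 0.44. This is an SD per probe set, a spread that says nothing of animals. Hepatocyte markers were bright on both arrays, with albumin (Alb) at 59840.4 and 46192. The poly-A spikes, control RNAs put in ahead of labelling, had a larger 3′ over 5′ ratio at day 3 in 8 of 8 pairs, by 1.32 to 2.90 times. The median log2 ratio of their 5′ probe sets was −1.20, and that of their 3′ probe sets −0.12. For the liver's own Gapdh and beta-actin transcripts the 3′ over 5′ ratio was 1.91 and 2.09 times larger at day 3. The position of the members' probe sets along their transcripts was not analysed, and its part in the results was not tested.

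At day 3, 5 of the 9 enzyme genes were at least 2-fold higher than at day 0, 4 were under 2-fold and none was 2-fold lower, beside 12.9% and 5.62% of all genes. The 5 were Rrm2, Dck, Dut, Rrm1 and Dtymk, and 4 of them passed 4-fold, as 3.27% of all genes did. The median log2 ratio of the 9 was 1.40, beside 0.08 over all genes. Of 18 member probe sets above the floor on at least 1 day, 11 passed 2-fold upward and none downward, against 11.2% and 6.07% of all such probe sets. The other 6 lay under the floor on both days. The count of higher members ran from 4 to 6 under the alternatives, with 4 when probe sets marked as shared between transcripts or genes were left out, which removes every Dck probe set, and 4 at a 4-fold threshold. It was 6 where Tyms passed 2-fold and at a 1.5-fold threshold, which Rrm2b passed.

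**Figure D1:**
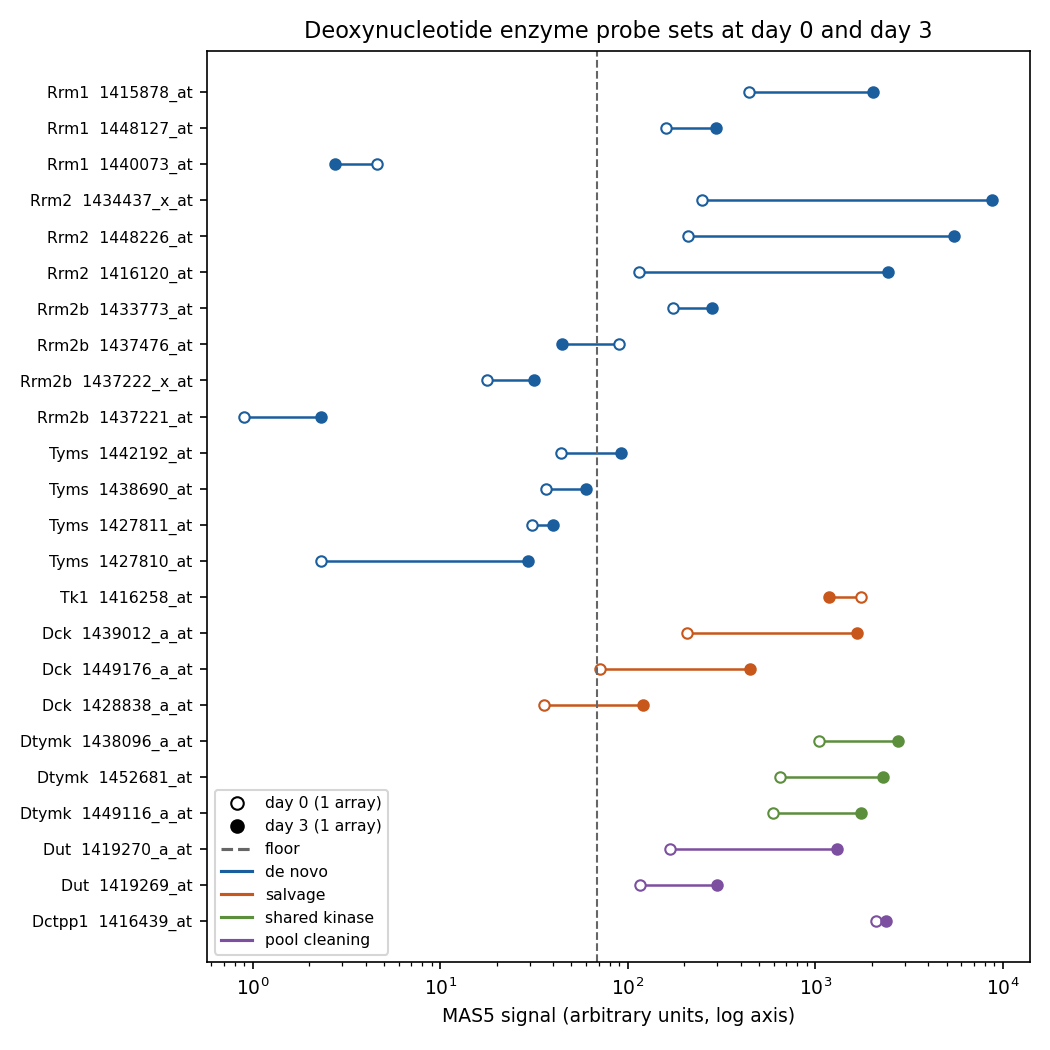
MAS5 signal (arbitrary units, log axis) of the 24 probe sets of the 9 enzyme genes, at day 0 (open) and day 3 (filled), 1 array each; the dashed line is the floor of 68.3. The 3 Rrm2 probe sets span the widest distances among those above the floor on both days, while the single Tk1 probe set is lower at day 3.

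Stretches upstream of the 5 members at least 2-fold higher at day 3 are shown, and that of Tk1, the one member with a lower signal. Each is the 250 bases before the RefSeq transcription start in GRCm38.p6, read 5′ to 3′ on the gene's strand. RefSeq windows were at hand for 8 members, all but Rrm2b. Capitals mark letters of an E2F-type site (TTCCCGC, its variant TTCGCGC, or the further variant TTGGCGC). They also mark the letters of any CCAAT box. Both motifs were searched on both strands, and no printed match overlaps another. E2F factors are transcription factors of S phase genes, and the CCAAT box is the binding motif of NF-Y.
Rrm1, chr7:102441445-102441694, plus strand: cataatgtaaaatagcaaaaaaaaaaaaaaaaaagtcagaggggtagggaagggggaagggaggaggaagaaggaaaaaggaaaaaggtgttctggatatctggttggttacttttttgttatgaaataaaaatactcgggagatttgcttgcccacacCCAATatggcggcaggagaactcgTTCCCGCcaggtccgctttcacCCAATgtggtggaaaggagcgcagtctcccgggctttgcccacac
Rrm2, chr12:24708004-24708253, plus strand: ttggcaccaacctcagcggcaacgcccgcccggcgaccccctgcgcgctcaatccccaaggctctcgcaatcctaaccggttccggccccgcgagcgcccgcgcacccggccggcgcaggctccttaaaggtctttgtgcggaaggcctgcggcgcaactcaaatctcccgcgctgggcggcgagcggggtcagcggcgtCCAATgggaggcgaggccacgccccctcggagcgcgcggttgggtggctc
Dtymk, chr1:93801935-93802184, minus strand: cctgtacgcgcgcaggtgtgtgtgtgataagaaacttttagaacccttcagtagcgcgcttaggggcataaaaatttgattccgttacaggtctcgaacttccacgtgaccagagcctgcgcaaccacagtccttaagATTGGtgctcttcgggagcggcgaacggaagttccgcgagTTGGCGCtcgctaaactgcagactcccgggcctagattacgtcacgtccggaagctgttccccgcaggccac
Dck, chr5:88764763-88765012, plus strand: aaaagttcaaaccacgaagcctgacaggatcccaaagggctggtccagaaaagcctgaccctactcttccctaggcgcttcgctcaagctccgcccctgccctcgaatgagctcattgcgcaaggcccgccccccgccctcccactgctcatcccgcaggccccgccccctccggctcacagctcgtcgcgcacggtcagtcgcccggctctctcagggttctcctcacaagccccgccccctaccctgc
Dut, chr2:125247265-125247514, plus strand: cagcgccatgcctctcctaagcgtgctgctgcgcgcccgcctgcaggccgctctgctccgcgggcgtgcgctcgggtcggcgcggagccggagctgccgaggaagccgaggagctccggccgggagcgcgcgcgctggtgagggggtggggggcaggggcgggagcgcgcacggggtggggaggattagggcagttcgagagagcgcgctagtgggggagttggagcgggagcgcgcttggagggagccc
Tk1, chr11:117826015-117826264, minus strand: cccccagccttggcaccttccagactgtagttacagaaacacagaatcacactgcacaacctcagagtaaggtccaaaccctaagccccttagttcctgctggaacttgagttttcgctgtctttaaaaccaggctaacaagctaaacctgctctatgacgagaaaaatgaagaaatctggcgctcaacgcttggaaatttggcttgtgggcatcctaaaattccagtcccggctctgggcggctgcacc
The Rrm1 stretch held an E2F-type match whose first base lay 67 bases upstream of the start, with CCAAT boxes 91 and 45 bases upstream. Rrm2 held a CCAAT box 50 bases upstream and no E2F-type match. Dtymk held an E2F-type match 72 bases upstream and a CCAAT box, on the opposite strand, 112 bases upstream. Neither motif was in the Dck and Dut stretches, whose genes were 7.99-fold and 7.85-fold higher, nor in those of Tk1 and Tyms. Dctpp1, under 2-fold, held 2 CCAAT boxes. Over the 8 windows, 2 held an E2F-type match and 4 a CCAAT box, while 6.69% and 33.8% of all 32851 RefSeq windows of this length did. A GC box (GGGCGG, both strands) was in 6 of the 8, against 32.7% of all windows, and the Dck window held 5 of them. The other 2 motifs searched were each in 1 window, too few to read against the share over all windows. The CHR letters (TTTGAA) were in 1 of the 8, that of Dck, against 16% of all windows. TATA-like letters (TATAAA or TTTAAA) were in 1, that of Tk1, against 22.1%. These matches describe letters only, and a window without a match says only that these letters are not in it.

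Ribonucleotide reductase is a complex of a large subunit, encoded by Rrm1, and a small subunit, encoded by Rrm2 in cycling cells and by the paralog Rrm2b, a p53 target, outside S phase. Rrm2 was the member with the highest ratio. Its main probe set (1434437_x_at) went from 248 at day 0 to 8776 at day 3. A second Rrm2 probe set went from 209 to 5456, and another from 114 to 2436. All 3 were thus low at day 0 and high at day 3, by 35.4-fold, 26.1-fold and 21.3-fold, and their log2 ratios had an SD of 0.37. On its main probe set Rrm2 ranked 12 among 12634 genes.

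The large subunit gene Rrm1 had a signal of 441 at day 0 and 2019.85 at day 3 on its main probe set (1415878_at), 4.58-fold higher. A second Rrm1 probe set went from 160.4 to 296, 1.85-fold higher and so short of the threshold. The remaining one stayed under the floor, at 4.61 and 2.76. Both readable probe sets were higher at day 3, but they differed from each other by more than the usual spread between probe sets, with log2 ratios of 2.20 and 0.89. On the mean over its probe sets Rrm1 had a log2 ratio of 1.54.

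Rrm2b stayed under 2-fold. Its main probe set (1433773_at) went from 175 to 281, 1.61-fold higher and under the threshold. A second Rrm2b probe set went the other way, from 90.0 at day 0 to 44.7, under the floor, at day 3. The other two were under the floor on both days, with signals of at most 31.7. The log2 ratio of Rrm2 exceeded that of Rrm2b by 4.46, a 22.0-fold gap, and by 4.02 to 4.70 under 10 alternatives. Of 15 other p53 targets analysed, 8 were at least 2-fold higher and 1 lower, beside 12.9% and 5.62% of all genes. Their median log2 ratio was 1.11. They were led by the antiproliferative gene Btg2 (7.49-fold), the CDK inhibitor gene Cdkn1a (5.25-fold) and Phlda3 (4.36-fold), a repressor of AKT signalling. Of the 8, Mdm2, Ccng1 and Aen had other probe sets short of 2-fold, with log2 ratios down to 0.53, 0.85 and 0.56. The lower gene, Sesn1, had others at −0.72 and −0.42.

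Tyms encodes thymidylate synthase, the only de novo source of dTMP. None of its 4 single-symbol probe sets was bright. The main one (1442192_at) went from 43.8, under the floor, to 91.6, which makes it at least 1.34-fold higher. The others read 36.6 and 59.7, 30.7 and 40.0, and 2.30 and 29.5 at day 0 and day 3, all under the floor. Every Tyms probe set had the larger signal at day 3, yet a fold can be read from none of them beyond that bound. With a 25th percentile floor the log2 ratio was 1.06, which is past 2-fold. A probe set annotated to both Tyms and the pseudogene Tyms-ps went from 587 to 2002, and it was not assigned to either.

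**Figure D2:**
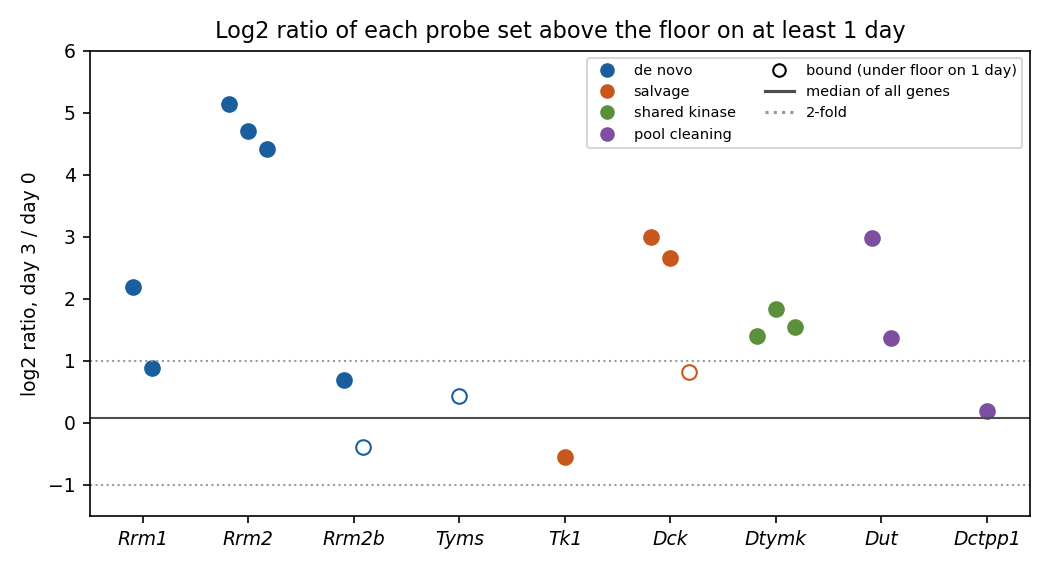
Log2 ratio (day 3 over day 0) of each member probe set above the floor on at least 1 day, by gene and coloured by role; open points are bounds, dotted lines mark 2-fold and the solid line the all-gene median of 0.08. The 3 Rrm2 points lie from 4.41 to 5.15, and Tk1 lies at −0.56.

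Of the salvage kinases, Dck was higher at day 3 and Tk1 lower. Dck encodes deoxycytidine kinase, which phosphorylates deoxycytidine, deoxyadenosine and deoxyguanosine. Its main probe set (1439012_a_at) went from 208 to 1659.85, 7.99-fold higher. A second went from 71.3, just above the floor, to 450.3, 6.31-fold higher, and the third from 35.5 to 119.8, at least 1.75-fold higher. All 3 were higher at day 3, so Dck stood with Rrm2 and Dut as the members with the largest ratios on their main probe sets.

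Tk1 encodes the cytosolic thymidine kinase, which phosphorylates thymidine and in cultured cells is an S phase gene. Its single probe set (1416258_at) read 1748 at day 0 and 1188 at day 3, 1.47-fold lower (log2 ratio −0.56). It was the one member below 0, and 84.7% of all genes had a higher ratio. The log2 ratio was below 0 under all 11 alternatives, from −0.61 to −0.27, and the latter value was with spike scaling. Its 1 probe set lay above each floor, so changes of floor or probe set choice could not move it from −0.56. Only other scalings, or no floor with 16 added, could. No second Tk1 probe set was there to compare, and the difference did not reach 2-fold. Against Dck the gap was 11.8-fold. The mitochondrial thymidine kinase gene Tk2 read 683 and 463 on its probe set, 1.47-fold lower, and the mitochondrial deoxyguanosine kinase gene Dguok 758 and 618, 1.23-fold lower.

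The de novo genes Rrm1, Rrm2, Rrm2b and Tyms had a median log2 ratio of 1.44, and the salvage genes Tk1 and Dck one of 1.22. The difference of 0.22 rests on 4 and 2 genes, with Tk1 and Dck on opposite sides of 0, and it ranged from 0.14 to 2.58 over 15 alternatives. It was 0.98 without Rrm2b or with Dut counted as de novo, since dUTPase makes the dUMP that thymidylate synthase uses, and 2.58 when the floor was the 75th percentile, which removes Rrm2b and Tyms. At least 2-fold higher were 2 of the 4 de novo genes and 1 of the 2 salvage genes, beside 12.9% of all genes. These counts are too small to compare the arms.

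Dtymk encodes thymidylate kinase, which turns dTMP from either route into dTDP. Its probe sets went from 1050.3 to 2769 (1438096_a_at), from 644 to 2299 and from 595 to 1742. The 3 were 2.64-fold, 3.57-fold and 2.92-fold higher at day 3, and their log2 ratios had an SD of 0.22. Dtymk thus passed the threshold on every probe set.

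Of the 2 enzymes that clean the pool, 1 passed 2-fold. Dut encodes dUTPase, which removes dUTP before it can be built into DNA. Its main probe set (1419270_a_at) went from 167 to 1309, 7.85-fold higher, and its other one from 116 to 298, 2.57-fold higher. Both were higher at day 3, and their log2 ratios of 2.97 and 1.36 lay further apart than the usual spread between probe sets. Dctpp1 encodes dCTP pyrophosphatase, which hydrolyses dCTP and its modified forms. Its single probe set (1416439_at) read 2090.2 and 2386, 1.14-fold higher. The Dctpp1 ratio stayed under 2-fold in every alternative, with log2 ratios from 0.18 to 0.48. Its 1 probe set lay above each floor, so changes of floor or probe set choice could not move this ratio.

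**Figure D3:**
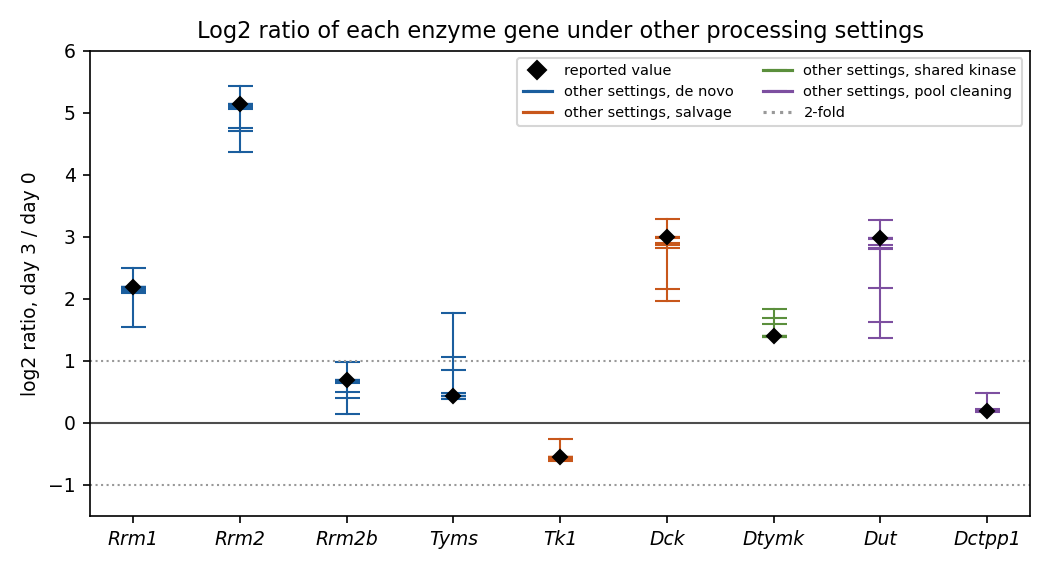
Log2 ratio (day 3 over day 0) of each enzyme gene as reported (diamonds) and under the other processing settings (dashes), with 2-fold as dotted lines. Rrm2 stays between 4.37 and 5.44, Dut spans 1.36 to 3.26, and Tk1 lies below 0 throughout.

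Other genes of nucleotide metabolism, from a list of 69 entries outside the 9, were mostly under 2-fold. Of these, 60 had a probe set with a single symbol and 57 were above the floor. At day 3, 4 of the 57 were at least 2-fold higher (7.02%) and 2 lower (3.51%), both shares below those over all genes, and the median log2 ratio was 0.10. Under spike scaling 9 were higher and 1 lower, a setting in which 19.6% of all genes were higher and 3.10% lower. The 4 higher genes were Ctps, a CTP synthase (248 and 805, 3.25-fold), Cmpk2, a mitochondrial nucleotide kinase (119 and 258, 2.16-fold), the uridine phosphorylase gene Upp1 (113 and 239.8, 2.13-fold) and Aprt, the adenine salvage enzyme (1998 and 4044, 2.02-fold), with another Aprt probe set at a log2 ratio of 0.64. The lower ones were the liver uridine phosphorylase gene Upp2 (10355 and 303, 34.2-fold) and Slc29a1, an equilibrative nucleoside transporter (4349 and 1933, 2.25-fold).

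By group, the 5 pyrimidine synthesis genes had a median log2 ratio of 0.84, with 1 past 2-fold. Cad, which starts the pathway, was 1.79-fold higher, and its other probe set had a log2 ratio of 1.67. The 14 genes of purine synthesis and salvage had a median of 0.20, and the 1 past 2-fold was the salvage gene Aprt. The 10 nucleoside mono- and diphosphate kinases had a median of 0.19 and 1 gene 2-fold higher. Other probe sets of this list lay further out: that of the nucleoside diphosphate kinase gene Nme1 (1.71-fold higher on the main one) had a log2 ratio of 2.86, and those of the mitochondrial adenylate kinase gene Ak3 (1.78-fold lower) had −2.72 and −1.72. The 9 genes of deoxynucleotide breakdown and cleaning, among them the dNTPase gene Samhd1 (445 and 531), had a median of 0.26 and none past 2-fold. The 10 other salvage and deamination genes had a median of −0.08, with 1 higher and 1 lower. Here Uck2 and Adk, under 2-fold on the main probe set, had others at −1.05 and 1.18, as Prps2 of purine synthesis had one at 1.07. The 4 electron donors of the reductase had a median of −0.12 and none past 2-fold: thioredoxin (Txn1) read 19811 and 17068, and a second probe set of the glutaredoxin gene Glrx had −1.44. Of the thymidylate and folate cycle 3 genes were analysed, with a median of −0.54 and none past 2-fold on the main probe set. Serine hydroxymethyltransferase 1 (Shmt1), which charges the folate that thymidylate synthase uses, was 1.54-fold lower there, and its 3 other probe sets lay from −2.03 to −1.13. Of 2 nucleoside transporters analysed, 1 was lower.

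**Figure D4:**
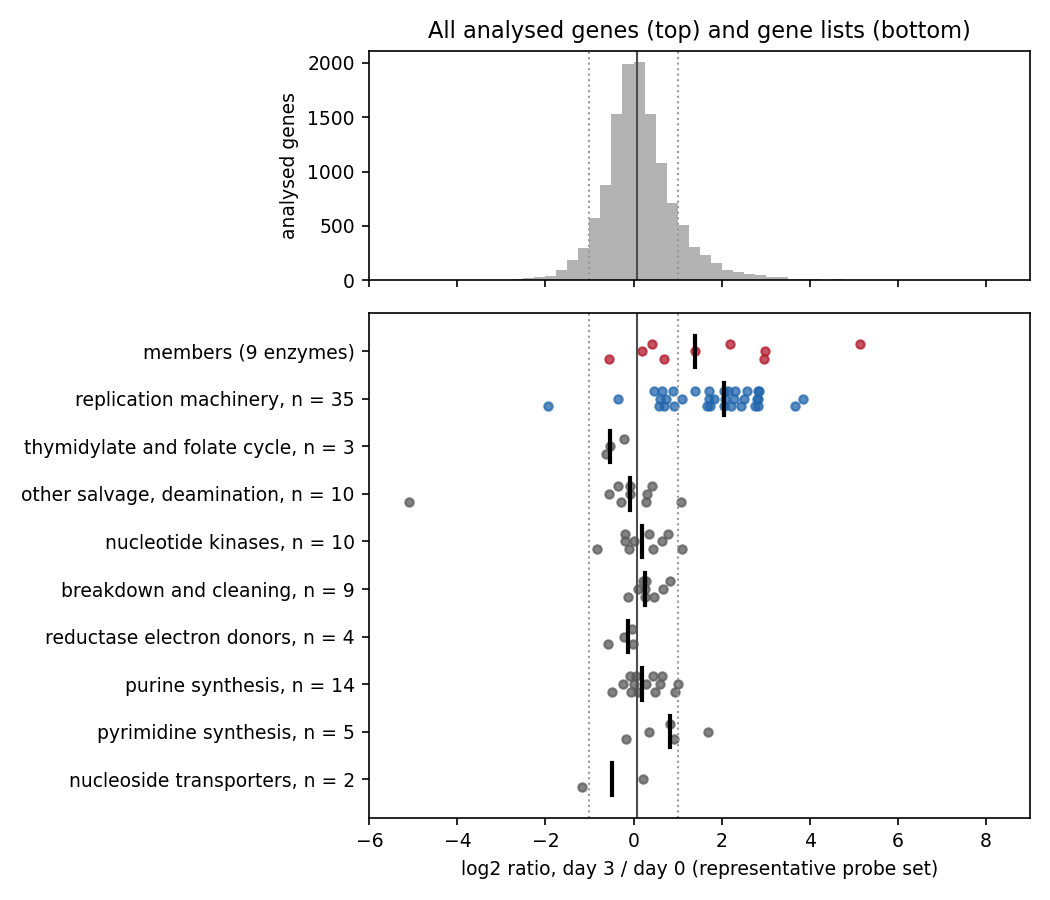
Top: number of analysed genes by log2 ratio (day 3 over day 0) in bins of 0.25. Bottom: the representative probe set of each gene in the members and in other lists, with list medians as black bars, the all-gene median as a solid line and 2-fold as dotted lines. The medians of the members (1.40) and of the replication machinery (2.05) lie to the right of those of the other nucleotide lists, while individual genes overlap.

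The replication machinery uses what these enzymes make. Of 35 of its genes, 25 were at least 2-fold higher (71.4%) and 1 was lower, with a median log2 ratio of 2.05, beside 5 of 9 (55.6%) and 1.40 for the members. Gins2, a part of the replicative helicase, was at least 14.3-fold higher, the helicase gene Mcm5 12.7-fold and the primase gene Prim1 7.22-fold. The lower gene, Mcm10, named after its values were seen, went from 6845 to 1781, and its other probe set had a log2 ratio of −1.74. Whether the members and this list differ was not tested.

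Genes above the floor on both arrays were also ordered by closeness to the log2 ratio of Rrm2, 5.15, with clone and predicted-gene symbols left out. The closest of those kept were Pbk (5.11), Nek2 (4.92), Top2a (4.87), Uhrf1 (4.74) and Incenp (4.69). Their day 0 signals were low, at 70.0, 86.7, 119, 98.6 and 146 in that order, with Pbk just above the floor. Other Nek2 probe sets had log2 ratios of 0.11 and 1.32. This likeness rests on 1 ratio between 2 arrays.

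Markers of several liver cell types moved between the arrays as well, and in whole tissue fewer cells of a type and less RNA per cell cannot be told apart. Of 8 macrophage markers 5 were at least 2-fold higher at day 3, and their summed signal went from 7618 to 20023. Over all genes 12.9% were at least 2-fold higher and 5.62% lower. Stellate cell markers were higher in 5 of 8 (summed signal 10603 and 29560) and cholangiocyte markers in 4 of 6 (416 and 1624). Neutrophil markers were higher in 2 of 4 (349 and 1303), with Mpo, Camp and Ltf under the floor on both days. At day 0 the stellate markers Des and Col1a1, the cholangiocyte markers Krt7, Epcam and Tspan8, and S100a8 of the neutrophil list were under the floor. Another Epcam probe set had a log2 ratio of −0.06, and another Tspan8 probe set 1.24. The 8 endothelial markers were all under 2-fold (10909 and 7965), as were the 7 hepatocyte markers (269814 and 208344). Erythroid markers were lower in 2 of 4, and their summed signal went from 9385 to 3037, with Alas2 at 8932 and 2783. B cell markers were lower in 1 of 5 (1222 and 506), and the 2 T and NK cell markers above the floor were under 2-fold (346 and 236), with Cd3e and Cd3d under the floor on both days. The part of these cell types in the higher members, or in the lower Tk1 signal, was not tested.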

How the data were processed

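Messenger RNA was measured on 1 Affymetrix mouse array per day (45101 probe sets), from 5 µg of total RNA per the labels' protocols. The deposited values are intensity values on a linear scale, made by the authors with GCOS and MAS5 per the submitters' processing notes. Neither versions nor a scaling target is given in the sources used here. Their 2% trimmed mean was 500.004 on both arrays. MAS5 subtracts mismatch signal, so low values are noisy. The number of arrays limits the precision.

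Probe sets were named through the supplied array annotation: 34945 had 1 symbol, 932 several and 9160 none, besides 64 controls. Only those with 1 symbol were used. Signals were floored at the higher array median, log2 was taken, and each gene was read on its brightest probe set. The members and lists were chosen with earlier results of these data known. All 9 members are named, with every probe set. Of other nucleotide lists, genes past 2-fold are named, up to 3 per direction, and of the replication and p53 lists the 3 with the largest differences; cell type marker lists are given by counts and summed signals; other named genes were chosen after their values were seen. Alternatives covered scaling, floor, probe set choice, arms and threshold. The steps were tested on simulated data. Python 3.11.15, pandas 2.3.3 and statsmodels 0.14.6 were used.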

Additional observations from a re-analysis of the deposited data

Results flagged for a closer look

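A probe set annotated to both Tyms and its pseudogene Tyms-ps lay outside the members' rule, which takes probe sets with a single symbol. Its signal was 587 at day 0 and 2002 at day 3, 3.41-fold higher (log2 ratio 1.77), while none of the 4 single-symbol Tyms probe sets exceeded 91.6. Which of these transcripts it measured was not tested.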

How the results depend on the processing

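With 1 array per day, no replicate could be left out. No paired analysis was possible because each day has 1 sample. A value counted as moved when it shifted by more than the SD between probe sets (0.44), a count when it changed by over 1.5 times. Of 96 member ratios under the alternatives, 84 kept within that SD, 12 moved and none of the 5 members past 2-fold changed sign. Many of the 84 could not move. A change of floor leaves a probe set above it as it was, and a gene with 1 readable probe set has no other choice. Median centring and spike scaling shifted ratios by less than that SD. The 84 are thus no measure of how firm the ratios are. The count of higher members was 4 to 6 under every alternative.

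Rrm2 minus Rrm2b was 4.02 without shared probe sets. De novo minus salvage was 0.98 with Dut in the de novo arm, without Rrm2b, or over genes that cleared the floor on both arrays, 0.89 for means, 1.998 without shared probe sets, which leaves Tk1 alone in the salvage arm, and 2.58 with a 75th percentile floor. It was 0.76 with the probe set shared by Tyms and Tyms-ps counted as Tyms, an alternative chosen after seeing the data.

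Other nucleotide genes higher at day 3 numbered 1 with a 75th percentile floor, 9 with spike scaling, 2 with quantile normalisation, 2 without shared probe sets, 13 at 1.5-fold and 0 at 4-fold. Lower ones numbered 4 with a 25th percentile floor, 1 with spike scaling, 5 for the mean over probe sets, 1 without shared probe sets, 4 at 1.5-fold and 1 at 4-fold. No replication gene was lower at 4-fold (0). Over all genes the higher count was 574 with a 75th percentile floor, 2401 with spike scaling, 3028 at 1.5-fold and 413 at 4-fold. The lower count was 1834 with a 25th percentile floor, 406 with a 75th percentile one, 380 with spike scaling, 1770 with no floor and 16 added, 1797 at 1.5-fold and 96 at 4-fold. Fewer genes lie above a 75th percentile floor (7688, against 12634); the causes of the other shifts were not tested. Low signal limits Tyms, whose main probe set was under the floor at day 0.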

Other observations

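Genes of pyrimidine breakdown, a list chosen after the data were seen, were mostly lower at day 3 by less than 2-fold. Dpyd, which encodes dihydropyrimidine dehydrogenase, the first and rate-limiting enzyme of uracil and thymine breakdown, read 12582.5 at day 0 and 6297 at day 3 (1.998-fold lower), and its other probe set had a log2 ratio of −1.08. The next enzyme, dihydropyrimidinase (Dpys), was 1.81-fold lower, its other probe set lying at −1.45, and beta-ureidopropionase (Upb1) was 1.76-fold lower. Aldh6a1, which acts on the thymine branch, was 1.88-fold lower. The list's 7 analysed genes, which include Upp1 and Upp2, had a median log2 ratio of −0.85, beside 0.08 over all genes, and 1 was past 2-fold in each direction. Hepatocyte markers were also lower, with a median of −0.35, and the part of either shift in the other was not tested.

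Genes of purine breakdown, likewise chosen after the data were seen, had a median log2 ratio of −0.26 over 9 genes, with none past 2-fold: 5 lay below 0 and 4 above. Urate oxidase (Uox) was 1.87-fold lower and xanthine dehydrogenase (Xdh) 1.28-fold lower, while the AMP deaminase gene Ampd2 was 1.81-fold higher and the guanine deaminase gene Gda 1.34-fold higher.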
